A study of Homo sapiens with 9 samples.

Results

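UCA1 (urothelial cancer associated 1, ENSG00000214049, Entrez gene 652995) is a long noncoding RNA gene, and it was 1 of the 24344 genes in the count table and 1 of the 14195 genes that passed the filter on low counts. It was chosen by its counts in the CKI, Kushen and Baituling libraries, which earlier results of these data had placed among the furthest apart between treatments. Its own levels and differences are therefore given as a description without a test. The table row was found by its Ensembl identifier, which the annotation names UCA1 and which the table pairs with the matching Entrez identifier. The gene lies on chromosome 19 from 15939016 to 15947138 on the forward strand (build GRCh37, the same assembly as hg19).

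Total RNA was sequenced from MDA-MB-231 cells, a long-established line from a human breast adenocarcinoma of the triple-negative, mesenchymal-like kind. All cells were treated for 48 h with a herbal injection: CKI (Compound Kushen Injection, made from Kushen and Baituling) at 2.0 mg/mL, an injection of Kushen alone, or an injection of Baituling alone, the single injections being given at a ratio matched to CKI. There were 3 libraries in each of the 3 groups, 9 in all, which the series calls biological replicates. Every comparison was between treated groups, since untreated libraries were not analysed here, so a higher level in CKI cannot be split into a rise under CKI and a fall under the other injection. All results come from 1 cell line and 1 time point.

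UCA1 RNA was first described in bladder cancer and is found in many carcinomas, while most adult tissues hold little of it. It has been reported to hold microRNAs in the cytoplasm, so that their target mRNAs are spared, and to bind proteins such as the splicing factor PTBP1 and the histone methyltransferase EZH2. Its transcription has been tied to HIF1A, ETS2, C/EBP proteins and the YAP, TAZ and TEAD factors of the Hippo pathway, and drug-resistant tumour cells have often been reported to hold more of it.

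The annotation lists 45 UCA1 transcripts. The transcript UCA1-201 has 3 exons and 2057 bases: exon 1 from 15939873 to 15940148, exon 2 from 15942065 to 15942166, and exon 3 from 15945446 to 15947124. The counts are per gene and do not separate these transcripts. MicroRNAs that UCA1 has been reported to hold were compared with UCA1-201, and the 3 whose seed had a match are shown because they mark where on the RNA a sponge function would act. The mature sequences are from RefSeq (table build GRCh38.p14), written 5′ to 3′ with the seed (bases 2 to 8) in capitals.
hsa-miR-143-3p: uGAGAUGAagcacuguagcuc
hsa-miR-18a-5p: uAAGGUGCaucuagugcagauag
hsa-miR-193a-3p: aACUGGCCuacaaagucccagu

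The bases of UCA1-201 that pair with these seeds all lay in exon 3, and each is shown as DNA of the forward strand in build GRCh37, with the 7 bases complementary to the seed in capitals and the coordinates of those 7 bases.
miR-143-3p, chr19:15945683-15945689: tcctctggacccTCATCTCttaag
miR-143-3p, chr19:15946760-15946766: caatgagtcccaTCATCTCtccac
miR-18a-5p, chr19:15946291-15946297: atacgctaactgGCACCTTgttag
miR-18a-5p, chr19:15946775-15946781: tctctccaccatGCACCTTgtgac
miR-193a-3p, chr19:15945875-15945881: acacgcatatggGGCCAGTtccac

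A match of 7 bases is common. The miR-143-3p match was found in 21.3% of 3551 annotated long noncoding transcripts within 10% of the length of UCA1-201, the miR-18a-5p match in 11.5% and the miR-193a-3p match in 11.0%. Over the UCA1 transcripts, 42 of 45 held the miR-143-3p match, 32 the miR-193a-3p match and 25 the miR-18a-5p match. The seeds of miR-145-5p, miR-204-5p, miR-182-5p and miR-216b-5p had 0 matches in UCA1-201, which says only that these letters are not in that transcript. The microRNAs themselves were not measured here.

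UCA1 was highest in CKI, lower in Kushen and lowest in Baituling. CKI libraries held 433, 447 and 424 counts, the Kushen libraries 42, 46 and 45, and the Baituling libraries 1, 14 and 6. As CPM, each count divided by its library's TMM-scaled size in edgeR and multiplied by 1000000, these were 17.0, 18.0 and 16.7 in CKI. They were 1.69, 1.89 and 2.00 in Kushen and 0.0488, 0.768 and 0.331 in Baituling. No library of 1 group reached the range of another group. Among all genes tested, the groups were apart in the same direction, without overlap, for 25.2% in CKI over Kushen, 40.3% in CKI over Baituling and 36.4% in Kushen over Baituling, so the gap between groups was by itself common in these data. Fewer cells with the RNA and less RNA per cell cannot be told apart in such bulk libraries.

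**Figure D1:**
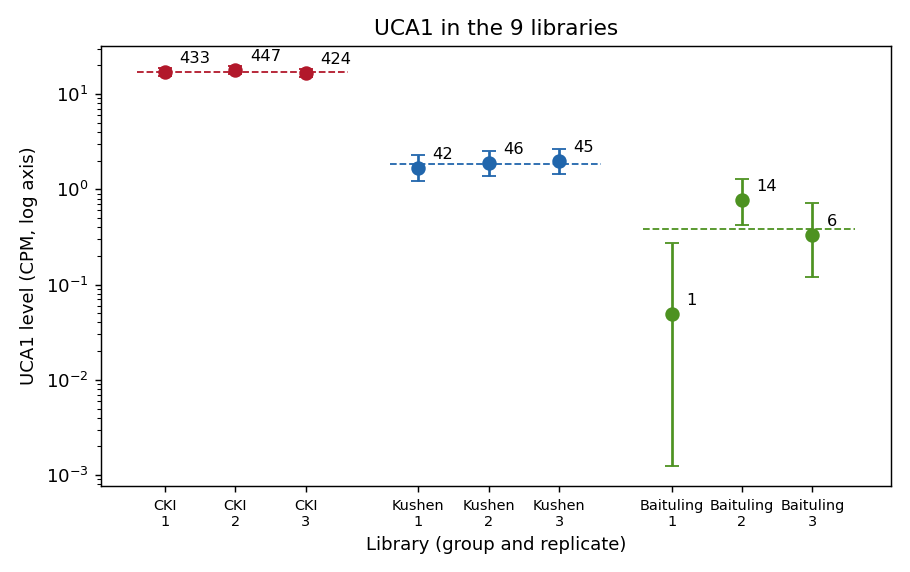
UCA1 level in each library in CPM (log axis), with the exact Poisson 95% interval of its count as the bar, its raw count beside the point and the group mean as a dashed line. The CKI libraries sit between 16.7 and 18.0 CPM, the Kushen libraries between 1.69 and 2.00, and the Baituling libraries spread from 0.0488 to 0.768.

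Over the 3 libraries of each group, UCA1 averaged 17.2 ± 0.672 CPM with CKI, 1.86 ± 0.155 with Kushen and 0.383 ± 0.362 with Baituling (SD). The libraries of CKI differed by a coefficient of variation of 3.90% and those of Kushen by 8.36%, which is below the 4.80% and 15.02% that counting alone gives at these depths. The Baituling libraries differed by 94.7%, where counting alone gives 37.8%. The exact Poisson 95% interval of the count ran from 0.0253 to 5.57 in Baituling replicate 1 and from 7.65 to 23.5 in replicate 2, so these libraries differed by more than counting error. The chi-square against equal CPM was 13.6 on 2 degrees of freedom in Baituling, 1.31 in CKI and 0.622 in Kushen. These intervals cover counting error only, and the single count of Baituling replicate 1 is under the 3 counts that a library with 0 would still allow.

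The fitted log2 difference of UCA1 was 3.21 ± 0.16 (SE) in CKI over Kushen, 5.52 ± 0.24 in CKI over Baituling and 2.31 ± 0.36 in Kushen over Baituling. The 3 comparisons share libraries, so the middle value is the sum of the other two. Over summed counts (1304 in CKI, 133 in Kushen and 21 in Baituling), the level in CKI was 9.30 times that in Kushen (95% counting interval 7.78 to 11.2, exact binomial). It was 46.7 times that in Baituling (30.4 to 75.7), and Kushen was 5.02 times Baituling (3.15 to 8.37). The value against Kushen barely depended on any 1 library, running from 3.15 to 3.25 on the log2 scale when each library was left out. The values against Baituling depended on which Baituling library was used. Without Baituling replicate 1 the log2 differences were 4.96 for CKI and 1.75 for Kushen, and without replicate 2 they were 6.52 and 3.31. The closest pair of libraries was still apart: the lowest CKI library was 8.39 times the highest Kushen library and 21.8 times the highest Baituling library, and the lowest Kushen library was 2.20 times the highest Baituling library.

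By log2 difference UCA1 ranked 6 of 14195 genes in CKI over Kushen, 10 in CKI over Baituling and 209 in Kushen over Baituling. Its mean in CKI was also compared with the sum of the means under the single injections. That sum was 2.24 CPM, and CKI was 7.70 times as high. Over all genes tested the median of this ratio was 0.504, close to a level alike in the 3 groups, and UCA1 ranked 2 after the lipase gene PNLIP. The lowest CKI library (16.7 CPM) lay above the highest Kushen and highest Baituling library added together (2.76 CPM), as it did for 161 genes in all, or 1.13%. Because the gene was picked for these levels, the ranks describe it and support nothing further.

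Set against other long noncoding RNAs by CPM per kilobase of annotated exon, UCA1 stood in the upper part of the class in CKI and in its lower part in Baituling. The table held 3348 genes of this type, of which 775 were tested. At 4.15 CPM per kb in CKI it ranked 58 of 775, at 0.447 in Kushen 424 and at 0.0921 in Baituling 629, where the class medians were 0.593, 0.508 and 0.326 CPM per kb. The length was the 4154 bases that UCA1 exons cover in the annotation, and a shorter expressed form would raise all 3 values by the same factor. Reads of overlapping genes on opposite strands cannot be separated in unstranded libraries. Of the genes that overlap UCA1 on the reverse strand, LINC01764 held 0 to 3 counts per library, and ENSG00000288618 was not analysed here.

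Long noncoding genes as a class are given beside all genes tested, without a test of the class, where a call is an adjusted p under 0.05 with a log2 difference above 1 or below -1. In CKI over Kushen 25 of the 775 (3.23%) were called higher and 2 lower, beside 1.7% and 0.197% of all genes tested. In CKI over Baituling 300 (38.7%) were called higher and 38 lower, beside 11.2% and 7.91% of all genes. In Kushen over Baituling 234 (30.2%) were called higher and 44 lower, beside 8.5% and 6.73%. The filter keeps a gene with enough counts in 1 group, so a sparse gene can pass through the group where it is high. Such genes favour calls in the direction of that group, and their part in these class shares was not tested. With 10 counts or more in every library, higher calls fell from 58.6% to 48.9% of all calls in CKI over Baituling. The median log2 difference of the class was 0.16, 0.74 and 0.54 in the 3 comparisons, and that of all genes 0.01, 0.03 and 0.02. UCA1 ranked 1, 4 and 47 within the class by log2 difference. After UCA1, the largest rises in CKI over Kushen, at an average log2 CPM of 1 or more, were those of CYP1B1-AS1 (1.24 ± 0.15, adjusted p 4.31e-06 in edgeR), ENSG00000237870 (1.15 ± 0.20) and LINC-PINT (1.04 ± 0.10). The largest falls were smaller, -0.76 ± 0.18 for PPP3CB-AS1, -0.68 ± 0.11 for LINC01615 and -0.63 ± 0.15 for ENSG00000260917, and none of those 3 was past a log2 difference of 1. CYP1B1-AS1, LINC-PINT and PPP3CB-AS1 overlap genes on the opposite strand.

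Of 30 long noncoding RNAs known from cancer studies, 24 were in the table and 18 were tested. In CKI over Kushen 7 were higher and 2 lower at an adjusted p under 0.05, beside 19.6% and 20.2% of all genes, with a median log2 difference of 0.06. MIR22HG, the host gene of a microRNA with tumour-suppressive reports, ran from 51.7 to 60.0 CPM with CKI, 31.7 to 34.8 with Kushen and 18.7 to 21.2 with Baituling, with groups that did not overlap. It was higher by 0.78 ± 0.06 in CKI over Kushen (adjusted p 2.6e-08) and by 0.75 ± 0.07 in Kushen over Baituling (adjusted p 2.13e-08). LINC-PINT, a transcript induced by p53, held 11.1 to 11.3, 5.28 to 5.55 and 2.08 to 2.59 CPM in the same order of groups. LUCAT1, a stress-responsive transcript, held 18.8 to 20.6 CPM in CKI and 11.5 to 15.2 in Kushen but 1.22 to 1.48 in Baituling. Its log2 difference was thus 0.52 ± 0.09 in CKI over Kushen and 3.30 ± 0.15 in Kushen over Baituling. PVT1 (0.35 ± 0.06) and LINC00511 (0.37 ± 0.09) were also higher in CKI over Kushen. TINCR rose by 1.86 ± 0.48 (adjusted p 0.00458) on under 1 CPM in every group. H19, MEG3, HOTAIR, MIR155HG, HULC and LINC-ROR held at most 7 counts per library and were not tested.

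UCA1 lies in a gene cluster of cytochrome P450 family 4F enzymes, which oxidise fatty acids and eicosanoids, and OR10H olfactory receptors. Within 500 kb of either end of UCA1 the table held 29 genes, 15 before it, 13 after it and LINC01764 overlapping it. The genes next to UCA1 were almost silent in every group. All 5 OR10H genes were at 0 in all 9 libraries, as were 10 of the 29 neighbours, and 5 of the 6 CYP4F genes held at most 2 counts per library. In all, 10 neighbours passed the filter. Those described here were AKAP8, AKAP8L and WIZ before UCA1, and CYP4F11, TPM4, RAB8A, FAM32A, AP1M1 and KLF2 after it.

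In CKI over Kushen, where UCA1 differed by 3.21, these 9 neighbours stayed between -0.32 and 0.15 on the log2 scale, and the median of all 10 tested was 0.01. None of the 10 was called by edgeR, and DESeq2 and limma-voom called 0 as well, beside 1.9% of all genes tested. Of the 10, 4 passed the adjusted threshold, beside 39.8% of all genes. At an unadjusted p under 0.05 there were 6, a count that cannot be set against that percentage. The share of all genes at an unadjusted p is not given. AKAP8L, a nuclear anchoring protein, was higher by 0.15 ± 0.06 (adjusted p 0.0482), a value that missed the threshold in DESeq2. TPM4, an actin-binding tropomyosin, fell by 0.21 on the log2 scale (adjusted p 0.00018). AP1M1, a subunit of a clathrin adaptor, had -0.13 ± 0.04 (adjusted p 0.0287), and its adjusted p missed the threshold when libraries were scaled by their totals.

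**Figure D2:**
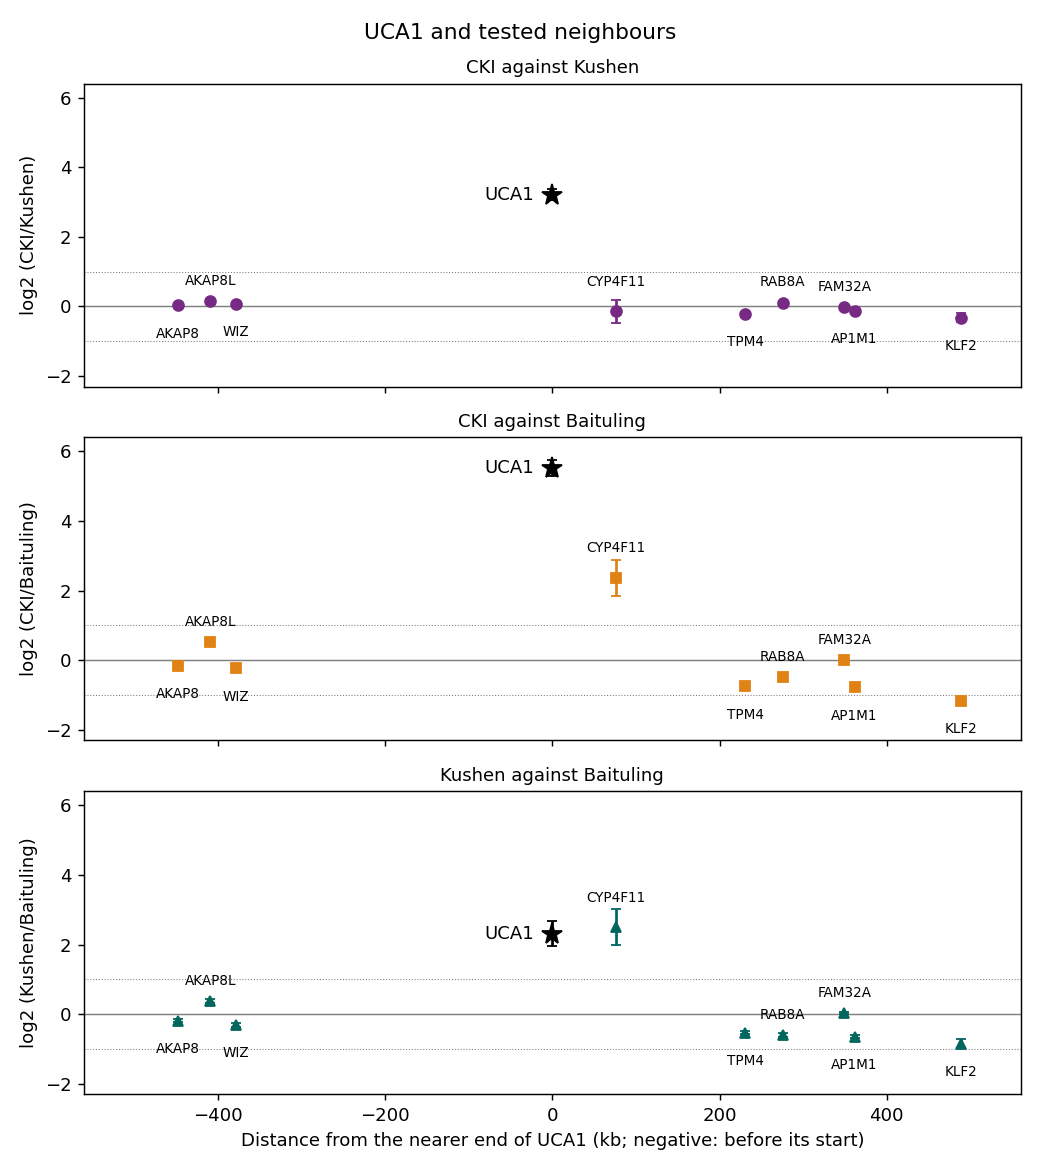
Fitted log2 difference (points, with the standard error as the bar) of UCA1 (star) and 9 tested neighbours against their distance in kb from the nearer end of UCA1, 1 panel per comparison. Dotted lines mark log2 differences of 1 and -1. In CKI over Kushen these neighbours stay between -0.32 and 0.15 while UCA1 stands at 3.21, and in both comparisons with Baituling CYP4F11 is high as well.

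The nearest tested neighbour, CYP4F11 (16023177 to 16045677, reverse strand, starting 76.0 kb after UCA1), parted from UCA1 between CKI and Kushen and moved as UCA1 did against Baituling. It held 19, 14 and 17 counts in CKI, 13, 19 and 20 in Kushen and 1, 4 and 2 in Baituling. The CKI and Kushen libraries overlapped, with a log2 difference of -0.13 ± 0.33 (adjusted p 0.776), and both groups lay above every Baituling library. CYP4F11 passed the filter (minimum count 10) only through CKI and Kushen, which favours calls in their direction. Its adjusted p-values against Baituling therefore only describe it. It rose by 2.37 ± 0.51 in CKI over Baituling (adjusted p 0.000347) and by 2.51 ± 0.51 in Kushen over Baituling (adjusted p 0.000198). These values rest on 1 to 4 counts per Baituling library, and they were 3.00 and 3.13 without Baituling replicate 2 and 1.97 and 2.11 without replicate 1. The promoter table has no entry for UCA1 and 2 entries for CYP4F11. The first of these is shown because CYP4F11 was the neighbour called higher against Baituling (RefSeq, GRCh38.p14, reverse strand, 250 bases before to 50 after the start). The capitals mark matches on either strand to an ETS core (CCGGAA) and to an antioxidant response element core (TGANNNNGC).
CYP4F11, chr19:15934818-15935117: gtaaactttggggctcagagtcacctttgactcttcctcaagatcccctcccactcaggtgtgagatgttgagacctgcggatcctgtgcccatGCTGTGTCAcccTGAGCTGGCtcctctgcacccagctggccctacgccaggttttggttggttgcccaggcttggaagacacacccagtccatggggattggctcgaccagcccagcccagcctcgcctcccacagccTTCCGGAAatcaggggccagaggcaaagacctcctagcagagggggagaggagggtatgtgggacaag

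The ETS core occurs 2 times there, on opposite strands and overlapping, and 17.2% of 35116 promoters of this length hold it. The antioxidant core also occurs 2 times, and 41.8% of promoters hold it. In this first entry no match was found for the other motifs searched: AP-1 (TGANTCA), TEAD (GGAATG), C/EBP (TTGCNNAA), the xenobiotic response core (GCGTG), the hypoxia response element (ACGTG), the SP1 GC box (GGGCGG), the E-box (CACGTG), NF-kB and the TATA box (TATAAA). The second CYP4F11 entry (15934480 to 15934779) held 1 AP-1 match, found in 7.7% of promoters, 2 NF-kB matches, found in 58.7%, and none to the other 9 motifs. These are letter matches and not binding sites.

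Against Baituling most tested neighbours lay on the other side from UCA1 after TMM scaling, and fewer did with libraries scaled by their totals. In CKI over Baituling 2 tested neighbours were higher and 6 lower at an adjusted p under 0.05, beside 39.1% and 37% of all genes, with a median log2 difference of -0.19. In Kushen over Baituling 2 were higher and 7 lower, beside 35.6% and 36.1%, with a median of -0.32. With library totals these counts became 5 higher and 4 lower, and 3 higher and 4 lower. That scaling also moved the median log2 difference of all genes to 0.32 and 0.23. The shares of all genes at an adjusted p under 0.05 with it are not given, so these counts cannot be set against the percentages above. KLF2, a zinc finger transcription factor 488 kb after UCA1, held 931, 871 and 1032 counts in CKI, 804, 1188 and 1339 in Kushen and 1826, 1443 and 1527 in Baituling. It fell by 1.17 on the log2 scale in CKI over Baituling (adjusted p 8.95e-08) and by 0.85 in Kushen over Baituling (adjusted p 6e-06). The former was -0.88 with library totals, short of a call, and the latter -1.04 without Kushen replicate 3, past the fold needed for one. AP1M1, TPM4 and RAB8A, a small GTPase of vesicle transport, were lower in both comparisons, by -0.78, -0.74 and -0.49 in CKI over Baituling. AKAP8L was higher in both, by 0.53 ± 0.06 and 0.38 ± 0.06. FAM32A differed by 0.01 ± 0.04 and 0.03 ± 0.04 (adjusted p 0.892 and 0.478). With libraries scaled by their totals, AKAP8 turned from -0.15 to 0.13 in CKI over Baituling and WIZ from -0.23 to 0.05, so the direction of small differences here depends on the scaling.

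The genes reported in the literature to act on UCA1, with it or after it were taken as 3 lists. Together they had 53 members, of which 46 were tested. At an adjusted p under 0.05 there were 23 in CKI over Kushen, 34 in CKI over Baituling and 32 in Kushen over Baituling, beside 39.8%, 76.1% and 71.6% of all genes tested. The median log2 difference over the 46 was -0.02, -0.08 and -0.09. With libraries scaled by their totals, 5 of the 23, 10 of the 34 and 3 of the 32 lost the adjusted threshold and 1 of the 34 turned sign. The libraries were unstranded, and HIF1A, CEBPB, ETS2, SATB1, EZH2, CDKN1A, CDKN1B, CCND1 and KLF4 are among the members that a gene on the opposite strand overlaps.

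Of the regulators of UCA1 transcription, few passed the test between CKI and Kushen. Of 19 members 17 were tested, and 2 were higher and 2 lower in CKI over Kushen at an adjusted p under 0.05, beside 19.6% and 20.2% of all genes. CEBPB, a C/EBP factor of inflammatory and stress responses, held 246, 251 and 279 CPM in CKI and 132, 167 and 174 in Kushen, without overlap. It rose by 0.72 ± 0.07 (adjusted p 4.09e-07), and Baituling, at 258 to 276 CPM, lay at the level of CKI (-0.05 ± 0.07 in CKI over Baituling, adjusted p 0.526). ETS2, an ETS family factor, held 50.0 to 51.9 CPM with CKI, 36.6 to 39.3 with Kushen and 44.1 to 45.6 with Baituling, and rose by 0.43 ± 0.05 in CKI over Kushen (adjusted p 2.06e-06). HIF1A, the oxygen-regulated factor, went the other way. Kushen libraries held the most, 516 to 534 CPM, beside 316 to 327 in CKI and 370 to 378 in Baituling, and HIF1A fell by 0.71 on the log2 scale in CKI over Kushen (adjusted p 8.05e-11). SATB1, a chromatin organiser, fell by 0.24 (adjusted p 0.00393). SMAD2 (-0.11 ± 0.05) and TGFB1 (-0.17 ± 0.07) of the TGF-beta pathway did not pass the test (adjusted p 0.0667 and 0.0737). None of these 6 genes had the order of UCA1, CKI above Kushen above Baituling. TBX3 was at 0 in every library and CEBPA held 0 to 6 counts, so neither was tested.

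Of the 17 regulators, 3 were higher and 8 lower in CKI over Baituling, beside 39.1% and 37% of all genes. In Kushen over Baituling 4 were higher and 9 lower, beside 35.6% and 36.1%. With library totals 7 of the 8 lost the threshold, all but TEAD4, while 2 of the 9 did. The Hippo factors were singled out after their values had been seen. YAP1, the transcriptional coactivator, held 157 to 162 CPM with CKI, 149 to 155 with Kushen and 200 to 216 with Baituling, and TEAD4, one of its DNA-binding partners, 18.2 to 20.02, 17.9 to 21.8 and 34.9 to 37.2. Neither differed between CKI and Kushen past the threshold (0.09 ± 0.04 with an adjusted p of 0.118, and -0.11 ± 0.08 with 0.286). Both were lower in CKI over Baituling, YAP1 by -0.37 ± 0.04, a value that lost the threshold with libraries scaled by their totals, and TEAD4 by -0.93 ± 0.07 (adjusted p 7.43e-10). TEAD4 does not stand for the other members. In Kushen over Baituling TEAD2, TEAD3 and WWTR1 (TAZ) had log2 differences of -0.53, -0.03 and -0.33, and TEAD1 is not given. Of 8 target genes of YAP and TEAD, 1 was higher and 3 lower in CKI over Kushen, beside 19.6% and 20.2% of all genes. CCN2 and AXL fell by 0.66 and 0.52 on the log2 scale, and ANKRD1 had -0.13 ± 0.04, which missed the threshold with totals. LATS2, a kinase that restrains YAP, was higher by 0.31 ± 0.06. AMOTL2 (0.10 ± 0.04) and CCN1 (-0.07 ± 0.04) did not pass. Against Baituling 4 of the 8 were higher and 2 lower, both in CKI (beside 39.1% and 37% of all genes) and in Kushen (beside 35.6% and 36.1%), with medians of 0.16 and 0.23.

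**Figure D3:**
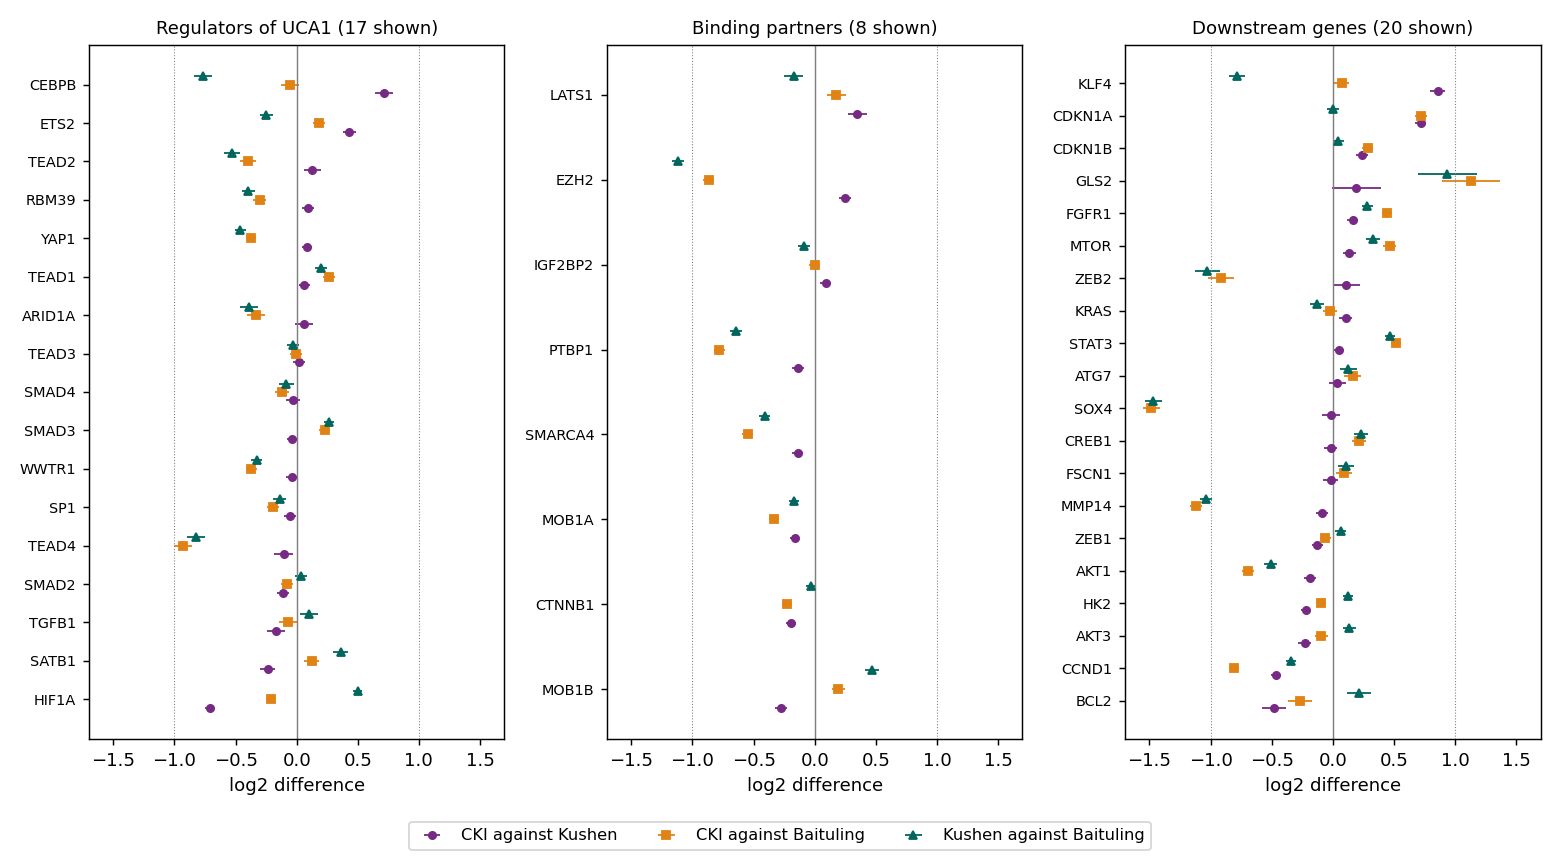
Fitted log2 differences (points, with the standard error as the bar) of tested regulators, binding partners and downstream genes of UCA1, with circles for CKI over Kushen, squares for CKI over Baituling and triangles for Kushen over Baituling. Genes are ordered by the difference in CKI over Kushen, which stays within -1 and 1 for every gene shown, while SOX4 and MMP14 lie below -1 in both comparisons with Baituling.

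Of 10 genes for proteins reported to bind UCA1 RNA, 9 were tested. In CKI over Kushen 2 were higher and 6 lower, beside 19.6% and 20.2% of all genes, with a median of -0.14, and 3 of the 6 (PTBP1, MOB1A and SMARCA4) lost the threshold with library totals. EZH2, the catalytic subunit of Polycomb complex 2, held 44.7 to 46.2 CPM with CKI, 37.3 to 39.8 with Kushen and 81.4 to 85.1 with Baituling, without overlap. It was higher by 0.25 ± 0.05 in CKI over Kushen (adjusted p 0.00054) and called lower in Kushen over Baituling, where it fell by 1.12 (adjusted p 1.27e-13). LATS1, a Hippo kinase, was higher by 0.35 ± 0.08 in CKI over Kushen (adjusted p 0.00134). Its scaffold subunit MOB1B fell by 0.28 and MOB1A by 0.16 (adjusted p 0.000347 and 0.0024). CTNNB1, which encodes beta-catenin, fell by 0.19 (adjusted p 0.000794). In CKI over Baituling 2 of the 9 were higher and 6 lower, beside 39.1% and 37% of all genes, and in Kushen over Baituling 1 was higher and 5 were lower, beside 35.6% and 36.1%. IGF2BP1 held at most 8 counts per library.

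Genes reported downstream of UCA1 passed the test in both directions. Of 24 members 20 were tested, and in CKI over Kushen 5 were higher and 6 lower, beside 19.6% and 20.2% of all genes, with a median of 0.01. CDKN1A, the inhibitor of cyclin-dependent kinases that p53 induces, held 352 to 378 CPM with CKI, 208 to 234 with Kushen and 222 to 223 with Baituling, and rose by 0.72 ± 0.05 in CKI over Kushen (adjusted p 6.97e-10). Its relative CDKN1B, whose translation UCA1 has been reported to lower in breast cancer cells by binding PTBP1, was higher by 0.24 ± 0.05 (adjusted p 0.000494). CCND1, the G1 cyclin D1, held 451 to 460, 621 to 646 and 777 to 834 CPM and fell by 0.47 on the log2 scale (adjusted p 4.59e-08). The pluripotency and differentiation factor KLF4 rose by 0.86 ± 0.06 (adjusted p 6.33e-09), from 25.0 to 30.7 CPM in Kushen to 49.3 to 51.0 in CKI, with Baituling at 46.3 to 49.4. HK2, a hexokinase of glycolysis, fell by 0.22 and the antiapoptotic BCL2 by 0.48.

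Among the mRNAs whose microRNAs UCA1 has been reported to hold, HK2 (miR-143-3p) had a log2 difference of -0.22 ± 0.04 in CKI over Kushen and FGFR1 (miR-216b-5p) of 0.16 ± 0.04. ZEB1 (miR-145-5p) had -0.13 ± 0.05, which missed the threshold with libraries scaled by their totals, and CREB1 (miR-204-5p) had -0.02 ± 0.05 (adjusted p 0.834). ERBB4 (miR-193a-3p) was not tested, at 6 to 8 counts per library in CKI and Kushen and 0 to 1 in Baituling. The tested targets named here did not share a direction in the comparison in which UCA1 differed by 3.21. MicroRNAs and proteins were not measured in these libraries, and a sponge function of UCA1 was not tested.

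In CKI over Baituling 8 downstream genes were higher and 7 lower, beside 39.1% and 37% of all genes, and in Kushen over Baituling 7 were higher and 6 lower, beside 35.6% and 36.1%. The called members, named after their values had been seen, were SOX4 and MMP14 in both comparisons, ZEB2 in Kushen over Baituling and GLS2 in CKI over Baituling. SOX4, a factor of mesenchymal change, held 24.5 to 25.2 CPM with CKI, 22.2 to 29.1 with Kushen and 67.8 to 71.9 with Baituling, and fell by 1.48 and 1.47 on the log2 scale. MMP14, a membrane-bound matrix protease, fell by 1.12 and 1.04, from 1911 to 1977 CPM in Baituling. ZEB2, a repressor of E-cadherin, fell by 1.03 in Kushen over Baituling. GLS2, a mitochondrial glutaminase, was higher by 1.13 ± 0.24 in CKI over Baituling (adjusted p 0.000258). ABCB1, the drug efflux pump, was below the filter with 5, 4 and 10 counts in CKI and 0 in all 6 other libraries. WNT6 and CDKN2A held at most 1 count.

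The genes most like UCA1 were sought by their correlation with it over the 9 libraries (log2 CPM, 11964 genes whose log2 CPM averaged 1 or more), given as a description because the libraries fall into 3 groups. The highest Pearson r was that of FAM222B (0.992), followed by PRKD2, CCDC32, PPL, CDK12, DCAF12, DNAJC24 and SAMD9, the last at 0.984. All 8 had CKI above Kushen above Baituling without overlap, an order that choosing them by r with UCA1 favours, so it is no separate result. All 8 differed far less than UCA1. FAM222B went from 21.6 ± 1.80 CPM in Baituling to 26.9 ± 0.631 in Kushen and 33.2 ± 0.961 in CKI (SD, n = 3). PPL, the desmosomal protein periplakin, had the widest differences of the 8 with 0.82 ± 0.10 in CKI over Kushen and 0.52 ± 0.12 in Kushen over Baituling. CDK12, a kinase of transcription elongation, had 0.39 ± 0.05 and 0.39 ± 0.06. A high r here means a like order and spacing of the 3 groups and holds for genes on several chromosomes.

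**Figure D4:**
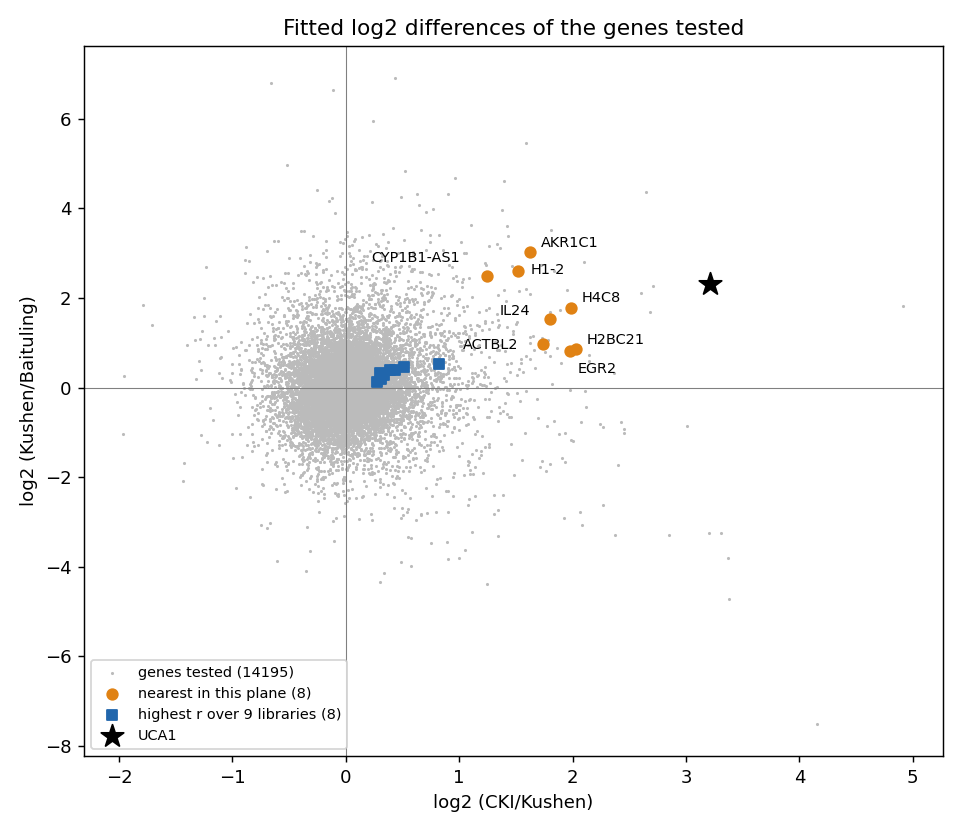
Fitted log2 difference in Kushen over Baituling (vertical) against that in CKI over Kushen (horizontal) for the 14195 genes tested, both of which use the Kushen libraries. UCA1 (star) lies at 3.21 and 2.31. The marked genes were sought only among those whose log2 CPM averaged 1 or more. Of these, the 8 nearest to UCA1 (circles) all lie nearer to the origin in CKI over Kushen, and the 8 with the highest r (squares) lie close to the origin.

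By the sizes of the differences, the 8 genes nearest to UCA1 among the same 11964 were H4C8, IL24, H1-2, AKR1C1, H2BC21, EGR2, CYP1B1-AS1 and ACTBL2. None of these 11964 was close. The nearest of them, H4C8, had 1.98 ± 0.10 in CKI over Kushen and 1.79 ± 0.16 in Kushen over Baituling, a distance of 1.34 log2 units from UCA1. Genes of lower average level were left out, and of those MMP13 and A2M lay nearer, on at most 4 counts per Baituling library. IL24, a cytokine of the interleukin-10 family, held 34.8 ± 2.85 CPM with CKI, 9.98 ± 0.972 with Kushen and 3.43 ± 0.461 with Baituling. AKR1C1, an aldo-keto reductase of steroids and reactive carbonyls, held 34.4 ± 1.50, 11.1 ± 0.387 and 1.38 ± 0.227 CPM. EGR2, an immediate early zinc finger factor, held 5.89 ± 0.849, 1.49 ± 0.184 and 0.841 ± 0.0786 CPM. H4C8, H1-2 and H2BC21 are histone genes, and counts of histone and AKR1C genes are uncertain because near-identical copies can share reads.

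Library totals ran from 20144628 to 23782071 counts. The TMM factors were 1.075 to 1.099 with CKI, 1.024 to 1.047 with Kushen and 0.877 to 0.899 with Baituling, so the composition of the libraries differed with the treatment. With libraries scaled by their totals instead, the median log2 difference of all genes moved from 0.01, 0.03 and 0.02 to 0.08, 0.32 and 0.23 in the 3 comparisons, and UCA1 had 3.29, 5.81 and 2.52. The line was checked by its markers: 9 of 9 markers expected in the line were at 65.6 to 2070 CPM in every group mean. Of 7 luminal and epithelial markers expected to be low, ESR1 and PGR held at most 4 counts per library. The other 5 (CDH1, EPCAM, GATA3, FOXA1 and ERBB2) passed the filter, with group means from 0.110 CPM for FOXA1 to 104 for ERBB2, both in Baituling. Against Baituling, in CKI and in Kushen alike, 7 of the 9 markers expected in the line were lower at an adjusted p under 0.05. This stood beside 37% and 36.1% of all genes, and 1 was higher, beside 39.1% and 35.6%. Of the 9, 4 were called lower in each, beside 7.91% and 6.73% of all genes. Of the 5 luminal and epithelial markers 1 was called higher, beside 11.2% and 8.5%, and 2 lower, beside the same 7.91% and 6.73%. In CKI over Kushen 6 of the 9 and 1 of the 5 were lower at that threshold, beside 20.2% of all genes. There 0 of either list were higher, beside 19.6%, and the median of the 9 was -0.26. The part of these markers in the UCA1 differences was not tested. Of the markers of other cell types, CD3E, PTPRC and ALB held at most 9 counts per library, and COL1A1 was expressed. Their summed level ran from 32.9 to 38.3 CPM with CKI, from 21.6 to 25.3 with Kushen and from 14.2 to 18.2 with Baituling, nearly all of it COL1A1, and its part in the UCA1 differences was not tested. Without COL1A1 the sum stayed below 1 CPM.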

How the data were processed

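MDA-MB-231 cells were sequenced as unstranded paired-end libraries of total RNA. According to the submitters' processing notes, reads were trimmed with Trim Galore 0.3.7 and aligned with STAR 2.5.3a to hg19. The authors deposited 1 table of raw counts per gene without normalization. The counting program, the gene annotation and the treatment of multi-mapped reads are not given in the sources used here. Columns were assigned to libraries by treatment initial and replicate number, and 0 value columns were left unassigned.

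The table had 24566 rows, of which 222 repeated an Ensembl gene with identical counts and were dropped. Of the 24344 genes left, 24224 were named from GENCODE release 44 on GRCh37, 99 from RefSeq by Entrez identifier and 21 had no name. Genes were filtered with filterByExpr (minimum count 10, minimum total 15), which kept 14195 and removed 10149, among them 4363 at 0 in every library. Library sizes were scaled by TMM, and group was fitted over all 9 libraries with the quasi-likelihood test of edgeR 4.0.16 (R 4.3.3), two-sided, with Benjamini-Hochberg adjustment over all genes tested. Differences are log2 values with their standard errors. A call needed an adjusted p under 0.05 and a log2 difference above 1 or below -1. The common biological coefficient of variation was 4.53%. Log2 CPM for correlations used a prior count of 2. Counting intervals are at 95%.

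The gene, its neighbours and all gene lists were chosen with earlier results of these data known. Up to 6 members of a list were named by the smallest adjusted p in CKI over Kushen, with exceptions marked. Replicates differed by more than sampling noise (chi-square per gene 1.70 to 6.85), so each counted as 1 sample, and p-values measure the spread between these libraries. Alternatives were other scalings and filters, DESeq2 1.42.0, limma-voom (limma 3.58.1), glmTreat, a replicate block, the rows as deposited, only the 2 groups compared, and leaving out each library. A few genes counted among the tested neighbours and list members are not reported here.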

Additional observations from a re-analysis of the deposited data

How the results depend on the processing

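The UCA1 differences kept their direction and stayed within the spread between replicates under all 54 alternatives that gave a value, and 157 of 171 recomputed counts stayed within 1.5 times. That spread was 0.13 log2 units in CKI over Kushen, but 1.33 in CKI over Baituling and 1.34 in Kushen over Baituling. In the latter 2 it is so wide that a move from 2.31 to 3.31 counts as within it. Where each library had to hold 10 counts or more, UCA1 has no value, since 2 Baituling libraries fall below, and the genes called were 102 in CKI over Kushen, 1808 in CKI over Baituling and 1415 in Kushen over Baituling (270, 2715 and 2162 otherwise). That filter also drops CYP4F11, which left 1 called neighbour in CKI over Baituling and 0 in Kushen over Baituling. The fit used above called 2 and 1 of the 10 tested neighbours in these comparisons, beside 19.1% and 15.2% of all genes. With glmTreat, which tests against a log2 difference of 1, the calls were 42, 1515 and 1029 of 14195 genes. Beside these, the members of the 3 lists past the threshold were 0, 2 and 2 of 46, and the neighbours called in CKI over Baituling 1 of 10. Scaling by library totals also left 1 neighbour there, and moved the share of higher calls from 58.6% to 80.0% in CKI over Baituling and from 55.8% to 74.6% in Kushen over Baituling. Leaving out 1 library at a time gave 1 to 2 called neighbours in Kushen over Baituling, with 2 without Kushen replicate 3, and 3.15 to 3.25, 4.96 to 6.52 and 1.75 to 3.31 for UCA1. Samples with the same number did not deviate together (r from -0.07 to 0.12 over 9 pairs, and 2 of 9 libraries correlated best with their own number). That check detected no pairing by number but cannot exclude that replicates were prepared in matched sets. With the replicate block UCA1 had 3.22, 5.52 and 2.31, and the calls were 269, 2713 and 2158. What limits UCA1 is its low level in Baituling, 1 to 14 counts per library, where the libraries also differed by more than counting error.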

Other observations

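Some genes outside the lists above shared the order of UCA1. Those described are among the genes called higher in CKI over Kushen and in Kushen over Baituling with the largest summed difference. JAKMIP3, ARL14 and TMEM59L, which ranked above MMP13 and A2M by that sum, are not described, and the number of all such genes is not given. Both comparisons use the Kushen libraries. CYP1A1, a cytochrome P450 enzyme induced through the aryl hydrocarbon receptor, ran from 3846 to 4027 counts per library with CKI, 1277 to 1543 with Kushen and 43 to 49 with Baituling, a narrow range within each group. The collagenase gene MMP13 held 93 to 107 counts with CKI, 11 to 22 with Kushen and 1 to 4 with Baituling. RERG, a small GTPase that slows growth, held 67 to 82, 7 to 16 and 0 to 1 counts. FER1L6 held 68 to 86, 19 to 29 and 0 to 1 counts, and the protease inhibitor gene A2M 35 to 59, 8 to 12 and 0 to 2. At so few counts under Baituling no fold change is given for MMP13, RERG, FER1L6 and A2M. By CKI over the sum of the single injections, RERG (6.15), MMP13 (5.51), COL3A1 (5.17), ALPP (4.93), A2M (3.85) and ARL14 (3.25) followed UCA1 in that order.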
